A study of Mus musculus with 8 samples.

Results

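The genes of oxidative phosphorylation, nuclear and mitochondrial, were followed in mouse bone-marrow-derived macrophages. Members were the protein-coding genes whose symbols begin with Nduf, Sdh, Uqcr, Cox4 to Cox8 or Atp5, together with the protein-coding genes of mitochondrial DNA. The count table of 34745 genes held 110 of them, 97 nuclear and 13 mitochondrial. Of these, 104 (91 nuclear and 13 mitochondrial) reached 10 counts in at least 2 libraries, and the same 104 were tested. Macrophages were grown with M-CSF at 20 ng/ml from wild-type (WT) marrow or from marrow labelled KAT8-cKO, here called KAT8-deficient. Each genotype was left untreated or given R848, an agonist of Toll-like receptor 7, at 100 ng/ml for 6 h, with 2 libraries for each of the 4 groups. KAT8, also called MOF, is a lysine acetyltransferase best known for acetylating histone H4. All 4 groups shared the M-CSF culture. The labels name neither what drives the deletion nor the age of the mice. Nothing in them ties the 2 libraries of a group to different mice or cultures, so p-values reflect the spread between libraries alone, which may be technical.

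Oxidative phosphorylation passes electrons from NADH and succinate through complexes I, II, III and IV to oxygen, and the resulting proton gradient drives ATP synthase, complex V. Complex II is encoded wholly in the nucleus. The other complexes combine many nuclear-encoded subunits, imported from the cytosol, with a few hydrophobic subunits made inside the organelle from mitochondrial DNA, which is transcribed as long precursors that are then cut into single messages. Macrophages activated through Toll-like receptors are known to lean towards glycolysis and to use complexes I and II for signalling, and KAT8 itself has been reported inside mitochondria as well as in the nucleus.

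Library totals ran from 18550977 to 21384532 counts. Kat8 was measured at 17 and 17.9 CPM (counts scaled to library size) in untreated WT libraries, 18 and 16.0 in WT with R848, 8.76 and 10.8 in untreated KAT8-deficient and 9.94 and 10.4 in KAT8-deficient with R848. It was lower by genotype in both states (edgeR adjusted p = 0.0113 untreated and 0.00553 under R848) and was still detected in every library. Counts over the whole gene do not tell whether a deleted exon is missing. All 10 macrophage markers were detected, with a summed level of 15300 to 16800 CPM in WT and 9000 to 10100 CPM in KAT8-deficient libraries, and of 3800 to 4630 CPM in all 8 libraries when Lyz2 was left out. All 10 stromal markers were detected too, at 3280 to 3800 CPM in untreated WT, 2750 to 2960 CPM in WT with R848, 4560 to 4810 CPM in untreated KAT8-deficient and 4040 to 4140 CPM in KAT8-deficient with R848. The neutrophil marker Ly6g and the dendritic marker Flt3 were listed at 0 throughout, but other markers on their lists were detected. The 5 neutrophil markers summed to 4.2 to 7.04 CPM over the 8 libraries and the 4 dendritic markers to 8.04 to 9.75 CPM. The 4 endothelial markers summed to 21.1 to 23.2 CPM in WT with R848 and to 29.4 to 38.6 CPM elsewhere. The stromal values move with genotype and with R848, as the results below do, and their part in them was not tested. In bulk RNA, fewer cells of a type and less RNA per cell cannot be told apart.

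The 13 mitochondrial genes lie close together on mitochondrial DNA (GENCODE M21, GRCm38), and 2 pairs on the same strand overlap by more than 1 base. The reading frame of mt-Atp8 runs into that of mt-Atp6 over 43 bases (chromosome M, 7927 to 7969), and mt-Nd4l runs into mt-Nd4 over 7 bases (chromosome M, 10167 to 10173). The 3′ ends of the upstream genes are shown because counts of these pairs share bases, with the overlap in capitals.
mt-Atp8 into mt-Atp6, chrM:7915-7969, plus strand: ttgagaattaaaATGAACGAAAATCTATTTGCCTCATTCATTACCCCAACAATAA
mt-Nd4l into mt-Nd4, chrM:10155-10173, plus strand: caacctactacaATGCTAA
The table also held 11 nuclear pseudogenes that match a mitochondrial gene at 95% identity or more over at least 100 bases, 5 of them without a mismatch over the aligned stretch. A run of 7 of them lies on the minus strand of chromosome 1 between 24611535 and 24616197. Reads of such copies cannot be assigned with certainty. The chromosome 1 copy Gm10925, identical to mt-Atp6 over 678 bases, took 47.4 to 49.8% of the counts that it and mt-Atp6 held together. For mt-Co2, mt-Co3, mt-Nd3 and mt-Nd4 the copies held between 6.82 and 12.8%, and for mt-Co1 3.33 to 3.52%.

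One count in the table stood apart. mt-Nd4l, a small membrane subunit of complex I, had between 5757 and 8236 counts in 7 libraries and 1 count in WT with R848 replicate 2. In that same library its neighbour mt-Nd4 had 25278 counts and mt-Nd3 had 2711, both inside the range of the other libraries. The chromosome 1 copy Gm10222, identical to mt-Nd4l over 294 bases, had 966 counts there and 778 to 1140 counts elsewhere. The neighbours and the copy were at their usual level in the library where mt-Nd4l was nearly empty. The mean R848 response of mt-Nd4l was −0.27 on the log2 scale with all libraries, −6.11 without WT with R848 replicate 1 and 0.23 without WT with R848 replicate 2 (edgeR adjusted p = 0.0588). Medians over the mitochondrial genes are given without it below, over 12 genes, unless stated otherwise.

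By level per length, messages from mitochondrial DNA stood above those from the nucleus. In untreated WT macrophages mt-Co1, the catalytic core of cytochrome c oxidase, averaged 5420 CPM per kb, followed by mt-Co2 at 3010. mt-Atp8 and mt-Co3 came next at 2410 each, with libraries that overlapped, and then mt-Cytb at 1420 and mt-Nd1 at 1410, which also overlapped. The most abundant nuclear member was Cox8a, a small subunit of complex IV, at 252 CPM per kb. Cox6a1 followed at 217, and the ATP synthase head subunits Atp5b and Atp5a1 at 176 and 173. All mitochondrial genes except mt-Nd6 exceeded Cox8a, the lowest of them being mt-Nd3 at 359. mt-Nd6, the only member on the opposite strand of mitochondrial DNA, was at 13.9 CPM per kb. Libraries were made from captured messenger RNA, and the mt-Nd6 message is known to be poorly polyadenylated. Adding the chromosome 1 copy raised mt-Atp6 from 391 to 766 CPM per kb.

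**Figure D1:**
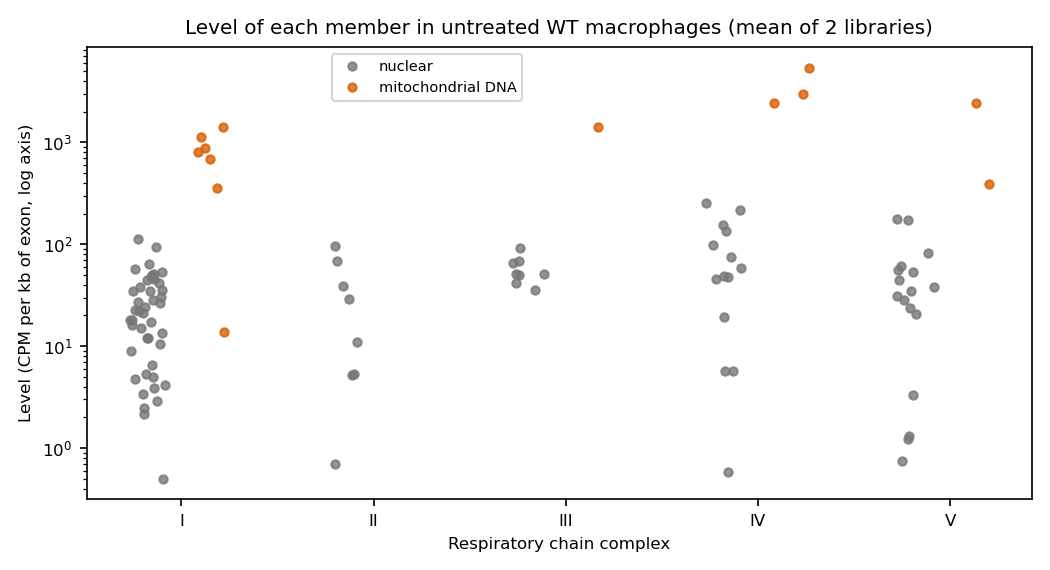
Level per length of each tested member in untreated WT macrophages (mean of 2 libraries, CPM per kb of exon, log axis), grouped by complex, with nuclear and mitochondrial genes in separate colours. In every complex that has both, the mitochondrial genes sit above the nuclear ones, except mt-Nd6 at 13.9.

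Per kb of annotated exon, the nuclear subunits of each complex covered a wide range. Over the 36 nuclear subunits of complex I the median was 26.6 CPM per kb and the highest was Ndufa1 at 113. The 4 subunits of complex II had a median of 54.1 with Sdhd, a membrane anchor, at 96.9. The 8 nuclear subunits of complex III had a median of 51.1 with Uqcr10 at 92.1. Complex IV had a median of 58.1 over 11 subunits and complex V of 36.3 over 16.

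Mitochondrial messages had higher values with R848 than without it in KAT8-deficient cells, by a difference that did not pass the test for any gene. mt-Co1 was at 7680 and 7870 CPM in untreated KAT8-deficient libraries and at 8950 and 8760 with R848. In WT it was at 9050 and 7700 untreated and at 9200 and 8520 with R848. The KAT8-deficient groups did not overlap, whereas the WT groups did. The same separation was seen for all 13 mitochondrial genes in KAT8-deficient cells and for 2 of 13 in WT, beside 46.8% and 56.0% of all tested genes. For genotype, 39 of 104 members had groups that did not overlap in untreated cells and 48 of 104 under R848, beside 50.4% and 59.4% of all tested genes. The median difference over the 12 mitochondrial genes was 0.23 on the log2 scale in KAT8-deficient cells (range 0.15 to 0.31) and 0.09 in WT (range 0.08 to 0.20), beside 0.00 for all tested genes in each genotype.

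No member was called in KAT8-deficient cells given R848 (0 of 104, edgeR adjusted p under 0.05), where 0.634% of all genes were. At an unadjusted p under 0.05 there were 21, of which 8 were mitochondrial, and the DESeq2 Wald test called 0. mt-Nd4, a proton-pumping subunit of complex I, had the smallest p among them, with a difference of 0.23 (SE 0.066, edgeR adjusted p = 0.191). The interaction, which asks whether R848 acted differently in the 2 genotypes, called 0 of 104 members by edgeR where 0.228% of all genes were called, with 5 at an unadjusted p under 0.05 and 1, Cox6a1, called by DESeq2. Over the 12 mitochondrial genes the median interaction was 0.12 on the log2 scale.

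**Figure D2:**
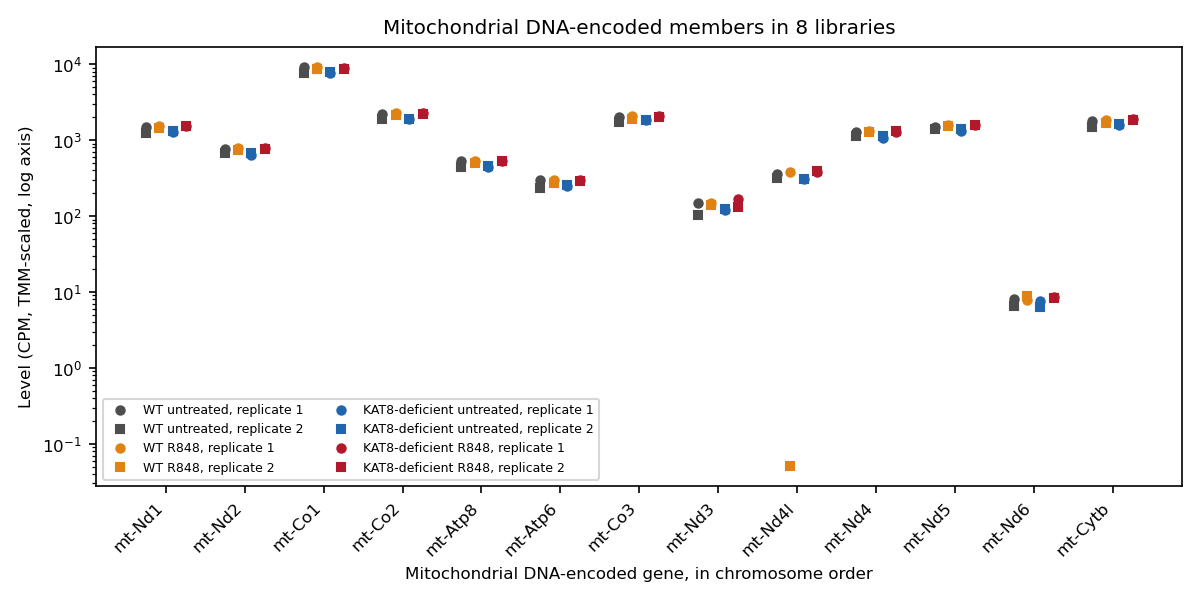
Level of each mitochondrial gene in the 8 libraries (CPM, log axis), coloured by group, with replicate 1 as circles and replicate 2 as squares. mt-Nd4l in WT with R848 replicate 2 rests on 1 count. Of the other genes mt-Co1 lies between 7680 and 9200 CPM, mt-Nd6 between 6.37 and 8.88 and mt-Nd3, whose highest library is 1.62 times its lowest, between 103 and 166.

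Averaged over both genotypes, the R848 response gave 4 called members of 104, where 14.8% of all genes were called. mt-Nd4 was measured at 1270 and 1150 CPM in untreated WT, 1320 and 1290 in WT with R848, 1070 and 1150 in untreated KAT8-deficient and 1270 and 1330 in KAT8-deficient with R848. It rose by 0.17 (SE 0.0467, edgeR adjusted p = 0.0459), the treated libraries lying at 1270 to 1330 and the untreated at 1070 to 1270. This call depended on single libraries and on the processing. The difference of mt-Nd4 ran from 0.14 to 0.2 when 1 library was left out. With all libraries, mt-Nd4 was not called with library sizes from nuclear genes, a minimum of 10 counts in 2 libraries or a term for replicate number. Without untreated WT replicate 1, 13 members were called in this comparison, 11 of them mitochondrial, and without untreated WT replicate 2 there was 1 called member, which was nuclear. The 2 untreated WT libraries differed from each other: over the 12 mitochondrial genes replicate 1 was higher for all 12, by a median of 0.25 on the log2 scale.

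The share of all counts in mitochondrial genes shows the same split. It was 2.15 and 1.82% in untreated WT, 2.16 and 2.01% in WT with R848, 1.84 and 1.91% in untreated KAT8-deficient, and 2.20 and 2.13% in KAT8-deficient with R848. Untreated WT replicate 1 was as high as the treated libraries and replicate 2 was the lowest of all. Nuclear members took 0.618 to 0.673% of counts, with no group apart from the others. The ratio of mitochondrial to nuclear counts was 2.74 and 2.96 in untreated KAT8-deficient libraries and 3.38 and 3.45 with R848, against 3.22 and 2.87 and then 3.33 and 3.12 in WT. These shares and ratios include mt-Nd4l, which had 1 count in WT with R848 replicate 2. Without it the shares were 2.12 and 1.79% in untreated WT, 2.12 and 2.01% in WT with R848, 1.81 and 1.88% in untreated KAT8-deficient and 2.16 and 2.09% in KAT8-deficient with R848, with untreated WT replicate 2 again the lowest.

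**Figure D3:**
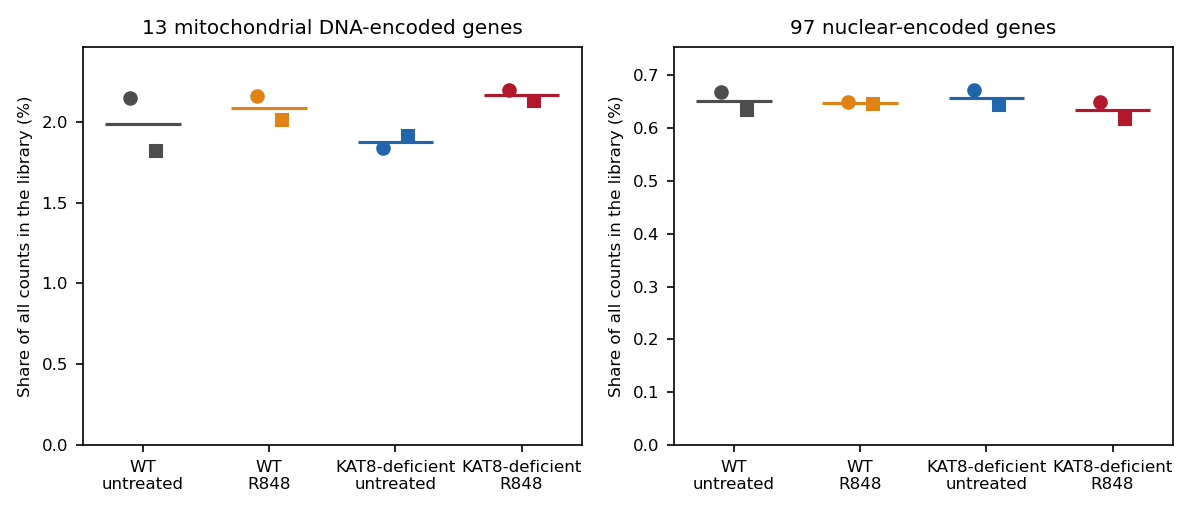
Share of each library's counts in the mitochondrial members, mt-Nd4l included, and in the nuclear members (percent), by group, with replicate 1 as circles, replicate 2 as squares and bars at group means. The KAT8-deficient libraries run from 1.84 to 1.91% untreated and from 2.13 to 2.20% with R848 for mitochondrial genes, while the 2 untreated WT libraries lie at 2.15 and 1.82%.

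Of the mitochondrial genes other than mt-Nd4l, 10 kept proportions to each other that differed by at most 1.09 times between libraries, and mt-Nd3 and mt-Nd6 varied more. Over the 12 genes mt-Co1 held 41.8 to 42.9% of the counts, mt-Co2 10.3 to 10.7%, mt-Co3 9.52 to 10.1% and mt-Cytb, the mitochondrial subunit of complex III, 8.20 to 8.78%. mt-Nd3 ran from 0.568 to 0.779%, a ratio of 1.37, and mt-Nd6 from 0.0341 to 0.0441%, a ratio of 1.29. By complex, the ratio of mitochondrial to nuclear counts was highest for complex IV, at 8.40 to 10.6, and lay between 2.29 and 3.87 for complexes I and III. Complex V had a ratio of 0.297 to 0.374, its nuclear genes holding more counts than mt-Atp6 and mt-Atp8 in every library. These ratios sum counts, are not scaled to the number or length of genes, and leave out the pseudogene copies. Per kb in untreated WT, mt-Atp6 at 391 CPM and mt-Atp8 at 2410 CPM lay above the nuclear subunits of complex V, which reached at most 176.

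Among nuclear genes, few members responded to R848. In WT, 1 of 104 members was called where 13.6% of all genes were. That gene was Cox6a1, the widely expressed isoform of a complex IV subunit (chromosome 5, 115345642 to 115348981, minus strand). It was at 161 and 144 CPM in untreated WT and at 184 and 186 with R848, and rose by 0.28 (SE 0.0751, edgeR adjusted p = 0.0419). In KAT8-deficient cells it was at 201 and 182 untreated and at 169 and 162 with R848, so the groups were separate in both genotypes but in opposite order. The genotype difference in untreated cells, which shares the untreated WT libraries with the WT response, was 0.33 (SE 0.0751, edgeR adjusted p = 0.0483). Its interaction was −0.49 (SE 0.106, edgeR adjusted p = 0.0996), which the DESeq2 Wald test called. Without untreated WT replicate 1, 4 members were called in the WT response, and without WT with R848 replicate 1 there were 2. Leaving out 1 library kept the WT call of Cox6a1 in 2 of 8 fits and the untreated genotype call in 0 of 8, with adjusted p from 0.0365 to 0.18 and from 0.0612 to 0.271.

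The other members called for R848 over both genotypes were 3 nuclear genes. Ndufs7, a core iron-sulphur subunit of complex I, was at 37.9 and 44.8 CPM in untreated WT, 35.6 and 33.6 in WT with R848, 39.2 and 37.1 in untreated KAT8-deficient and 31.4 and 31.3 in KAT8-deficient with R848. It fell by 0.27 on the log2 scale (SE 0.0655, edgeR adjusted p = 0.0277), with every treated library below every untreated one. Atp5d, the delta subunit of the ATP synthase head, was at 118 and 119, then 101 and 99.0, in WT, and at 127 and 113, then 107 and 79.7, in KAT8-deficient cells. It fell by 0.30 on the log2 scale (SE 0.0861, edgeR adjusted p = 0.0492). Ndufaf1, an assembly factor of complex I, rose by 0.36 (SE 0.102, edgeR adjusted p = 0.0499). Leaving out 1 library kept the calls of Ndufs7 and Atp5d in 1 of 8 fits each and that of Ndufaf1 in 0 of 8.

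The 4 members with a difference of 0.5 or more in WT in either direction, none of which passed the test, were mt-Nd4l and 3 nuclear genes with low counts. These were Ndufb4 (0.93, edgeR adjusted p = 0.295), Atp5g2 (0.67, edgeR adjusted p = 0.0985) and Cox6b2 (−0.78, edgeR adjusted p = 0.517), which stayed below 5 CPM in every library. Among the uncalled nuclear members with a mean of at least 5 CPM in the higher group, the largest positive or negative differences within a complex included the following. Ndufab1, the mitochondrial acyl carrier protein, differed by 0.31 (edgeR adjusted p = 0.155), Sdhaf1 by 0.32 (edgeR adjusted p = 0.127) and Atp5j, a peripheral stalk subunit of complex V, by −0.26 (edgeR adjusted p = 0.0855). Sdha, the flavoprotein that oxidises succinate, was at 287 and 284 CPM untreated and at 252 and 258 with R848, a difference of −0.16 (edgeR adjusted p = 0.0867). Over the 91 nuclear members the median difference was 0.00 in WT and −0.04 in KAT8-deficient cells, where 61 of 91 lay below 0. Changes of this size were near the precision of the fit: the median SE of a member was 0.095, beside 0.119 for all genes. A difference of 0.5 or more in either direction on the log2 scale was seen in WT for 16.8% of all genes.

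**Figure D4:**
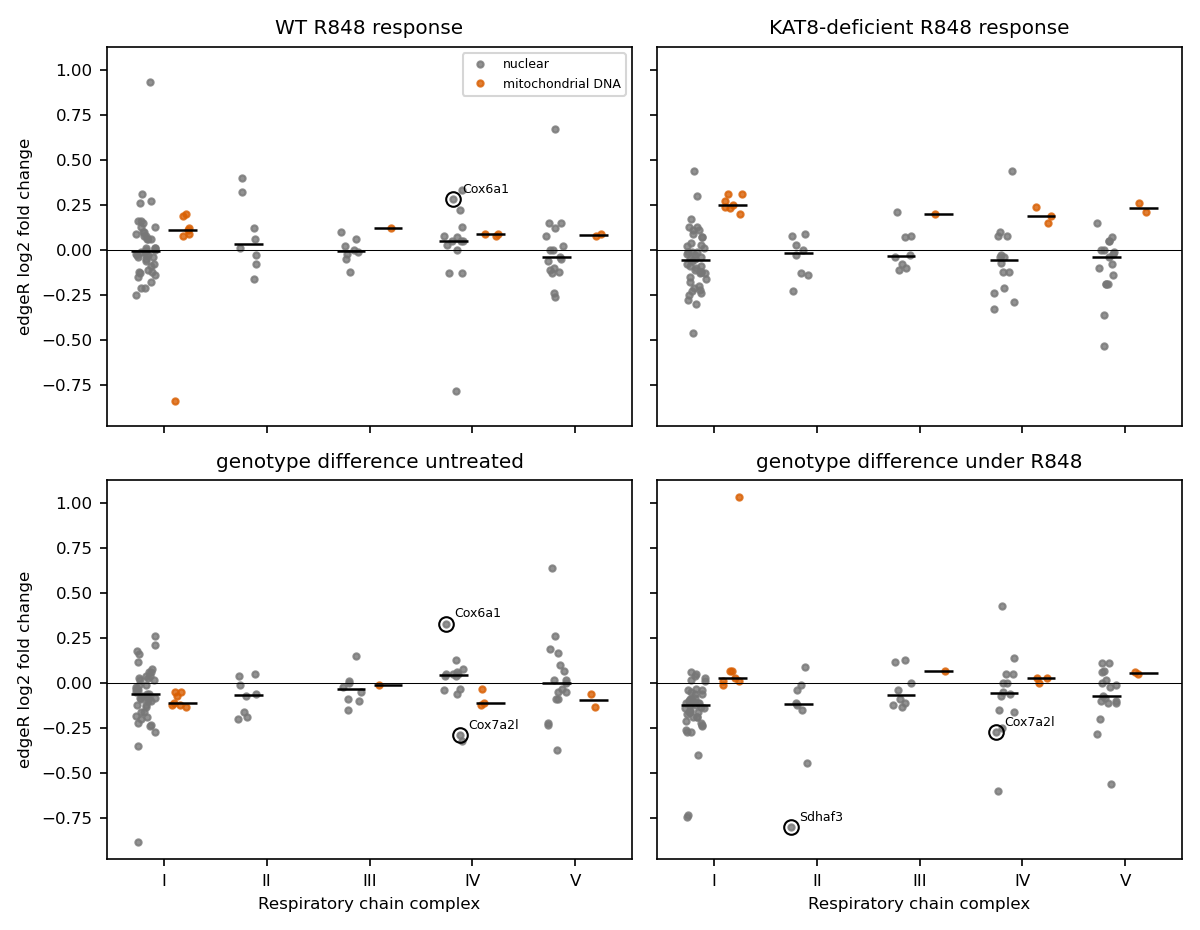
Log2 difference of each tested member in the pairwise comparisons, grouped by complex and by genome of origin, 1 point per gene. Bars are at the medians, mt-Nd4l included, and circles surround called members. Nuclear members centre near 0 in WT given R848 (median 0.00), and mitochondrial genes lie above 0 in KAT8-deficient cells given R848.

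By genotype, Cox7a2l was the member whose lower level held in most fits. Over both treatments 6 of 104 members (5.77%) were called, all nuclear and all lower, where 18.6% of all genes were called and 7.56% were called lower, so the members' share of lower calls was near that of all genes. They were Cox7a2l, Atp5j, Ndufs5 and the assembly factors Ndufaf2, Ndufaf4 and Sdhaf1. In untreated cells 2 were called, Cox6a1 higher and Cox7a2l lower, where 4.27% of all genes were called. Under R848 there were 2, Cox7a2l and Sdhaf3, both lower, where 13.6% of all genes were called. Without KAT8-deficient with R848 replicate 1, or without WT with R848 replicate 2, the count under R848 was 0. Untreated KAT8-deficient libraries had summed stromal markers of 4560 to 4810 CPM against 3280 to 3800 CPM in WT, and the part of this in the genotype differences was not tested.

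Cox7a2l, also known as SCAF1, helps join complexes III and IV into supercomplexes (chromosome 17, 83501918 to 83517330, minus strand). It was at 148 and 145 CPM in untreated WT, 136 and 130 in WT with R848, 121 and 119 in untreated KAT8-deficient and 106 and 114 in KAT8-deficient with R848. Every KAT8-deficient library lay below every WT library. The difference over both treatments was −0.28 (SE 0.042, edgeR adjusted p = 0.00262), and it was −0.29 untreated (adjusted p = 0.034) and −0.27 under R848 (adjusted p = 0.0171). The call over both treatments was made in 8 of 8 fits that left out 1 library (adjusted p from 0.00467 to 0.0166). Under R848 it was made in 5 of 8, being lost without either WT library with R848 or without KAT8-deficient with R848 replicate 1, and in untreated cells in 2 of 8.

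Assembly factors help to build complexes without remaining in them, and 12 were tested. All 12 lay below 0 for genotype in untreated cells, under R848 and over both treatments, beside 51.4, 51.2 and 52.4% of all genes tested. These comparisons share libraries. Their medians were −0.18, −0.24 and −0.20, beside −0.01 for all genes. Over both treatments edgeR called 3 of the 12, all lower, beside the 7.56% of all genes called lower. Among the members, the DESeq2 Wald test called only Atp5j and Cox7a2l in that comparison, and no assembly factor. Ndufaf4, an early complex I assembly factor (chromosome 4, 24898083 to 24905001, plus strand), was at 18.6 and 14.1 CPM in untreated WT, 19.0 and 17.7 in WT with R848, 11.8 and 5.99 in untreated KAT8-deficient and 14.2 and 7.74 in KAT8-deficient with R848. The difference over both treatments was −0.81 (SE 0.234, edgeR adjusted p = 0.0438). The KAT8-deficient replicates were far apart in both states, and the higher of them reached the lowest WT library. Ndufaf4 was called in 2 of 8 fits that left out 1 library, at −1.06 and −1.10, and lay between −0.61 and −0.90 in the others. Ndufaf2 differed by −0.38 (edgeR adjusted p = 0.0438), with every KAT8-deficient library, at 5.61 to 6.89 CPM, below every WT library, at 6.90 to 8.91.

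Sdhaf1 and Sdhaf3 help to insert the iron-sulphur clusters of complex II. Sdhaf1 was at 12.9 and 13.9 CPM in untreated WT, 17.7 and 15.8 in WT with R848, 11.9 and 11.5 in untreated KAT8-deficient and 11.2 and 13.6 in KAT8-deficient with R848. The difference over both treatments was −0.32 (SE 0.0884, edgeR adjusted p = 0.0395). Sdhaf3 was weakly expressed, at 5.23 and 4.29 CPM in WT with R848 and at 3.02 and 2.45 in KAT8-deficient cells with R848, a difference of −0.80 (SE 0.215, edgeR adjusted p = 0.0427). That call was made in 0 of 8 fits that left out 1 library. The DESeq2 Wald test did not call Sdhaf3 under R848. Among subunits, Ndufs5 of complex I differed by −0.21 over both treatments (edgeR adjusted p = 0.0383) and Atp5j by −0.24 (edgeR adjusted p = 0.0278). Atp5j was at 78.9 and 70.3 CPM in untreated WT against 54.7 and 60.7 in untreated KAT8-deficient cells. Ndufaf2, Ndufs5 and Sdhaf1 were each called in 1 of 8 fits that left out 1 library and Atp5j in 3 of 8. Without untreated WT replicate 1 or without WT with R848 replicate 2, Cox7a2l was the only member called over both treatments.

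**Figure D5:**
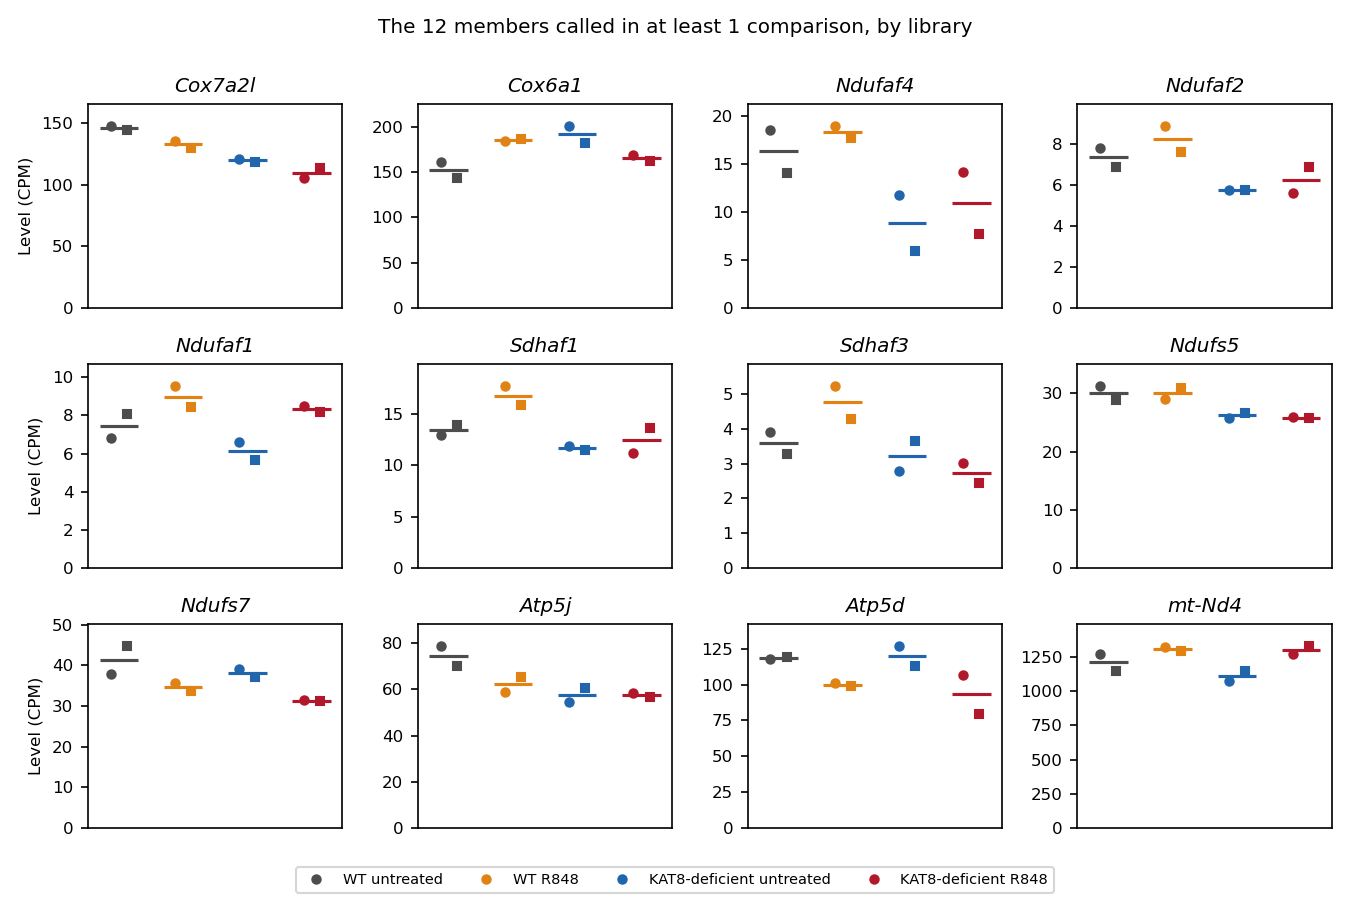
CPM of the called members in each library (replicate 1 as circles, replicate 2 as squares, bars at group means, axis from 0), 1 panel per gene. Cox7a2l is lower in all 4 KAT8-deficient libraries than in the 4 WT libraries, and Cox6a1 changes order between genotypes.

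By complex, the nuclear members of complex I had a median of −0.10 for genotype over both treatments, with 37 of 44 below 0 and 3 called (6.82%), all lower. Over all genes tested, 52.4% lay below 0, 18.6% were called and 7.56% were called lower. The complex I members include 8 of the assembly factors above, all of which lay below 0. Complex II had −0.08 (5 of 8 below 0, 1 called), complex III −0.05 (6 of 8, 0 called), complex IV 0.00 (8 of 14, 1 called) and complex V 0.01 (7 of 17, 1 called). For complex III the edgeR test gave 1 member at an unadjusted p under 0.05, and DESeq2 called 0. Under R848 the genotype median was −0.12 for nuclear complex I genes and 0.03 for its 7 mitochondrial genes, mt-Nd4l included. These medians describe the members and were not tested.

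Several complex IV subunits come in pairs, with a widely expressed form and one typical of muscle, lung or testis. Cox4i2, Cox7b2, Cox8b and Cox8c were listed at 0 in every library, whereas Cox4i1 and Cox8a were at 203 to 282 and 122 to 166 CPM. Cox7a1 had 0.236 to 0.587 CPM and was not tested, beside Cox7a2 at 49.1 to 56.8 CPM. Cox6a2, the muscle form, was tested and low, at 2.83 to 5.28 CPM. Ndufa4l2, which hypoxia is known to induce, reached at most 0.163 CPM, or 3 counts, while its partner Ndufa4 was at 57.5 to 67.7 CPM.

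Lists of companion genes of the pathway differed in how many were called. Of 9 electron carriers and complex III and V genes outside the symbol prefixes, 0 were called in any of the 7 comparisons by edgeR or DESeq2, with at most 1 at an unadjusted p under 0.05 in a comparison. Of 32 genes for transcription and handling of mitochondrial RNA, 0 were called in the 4 pairwise comparisons by edgeR or DESeq2, with 2 to 5 at an unadjusted p under 0.05. By edgeR over both treatments 2 (6.25%) were lower by genotype, beside 7.56% of all genes called lower, and DESeq2 called 0. The 2 were Fastkd1 (−0.41, edgeR adjusted p = 0.0386) and Tfb1m (−0.45, edgeR adjusted p = 0.0431). For the R848 response over both genotypes 2 of the 32 (6.25%) were higher, 1 of them by DESeq2, where 14.8% of all genes were called, and Fastkd1 was among them at 0.40 (edgeR adjusted p = 0.0472). Of 78 mitochondrial ribosome genes 8 (10.3%) were lower by genotype over both treatments, beside 7.56% of all genes, and 0 higher (22 at an unadjusted p under 0.05 in either direction, 4 called by DESeq2), among them Mrpl35 (−0.43, edgeR adjusted p = 0.00296) and Mrpl36 (−0.34, edgeR adjusted p = 0.00352). With R848, 3 of the 78 (3.85%) were higher in WT, where 13.6% of all genes were called, and over both genotypes 4 were higher and 1 lower (6.41% in all), where 14.8% were called. Assembly genes were also compared by genotype over both treatments. Beyond the prefixes, the ATP synthase assembly factor Atpaf1 (−0.62, edgeR adjusted p = 0.0277) and the complex IV assembly factors Coa5 (−0.22, edgeR adjusted p = 0.0155) and Sco1 (−0.33, edgeR adjusted p = 0.0362) were lower in that comparison. They were 1 of 5 (20%) and 2 of 23 (8.7%) such genes tested, beside 7.56% of all genes called lower. Of 9 complex I assembly genes outside the prefix 1 (11.1%) was lower. Of 6 complex III assembly genes 0 were called and 0 had an unadjusted p under 0.05 by edgeR. The DESeq2 Wald test called 1 for ATP synthase, 1 for complex IV and 0 for complexes I and III. Of 17 genes of the tricarboxylic acid cycle, which supplies NADH and succinate, 2 (11.8%) were higher with R848 in WT and 3 (17.6%) lower by genotype under R848, beside 13.6% of all genes called in each comparison. The DESeq2 Wald test called 1 and 2 of them. Dld, the shared dehydrogenase subunit of the oxo-acid complexes, rose by 0.29 in WT (edgeR adjusted p = 0.0312), and its genotype difference under R848 was −0.27 (edgeR adjusted p = 0.0381).

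Coenzyme Q carries electrons between the first complexes and complex III. Of 12 genes for its synthesis 1 (8.33%) was called in WT given R848 and 2 (16.7%) by genotype under R848, beside 13.6% of all genes in each. Coq8a, a kinase-like protein needed for that synthesis, was at 3.17 and 2.99 CPM in untreated WT, 7.84 and 6.84 in WT with R848, 2.52 and 2.78 in untreated KAT8-deficient and 2.97 and 3.96 in KAT8-deficient with R848. It rose by 1.25 in WT (SE 0.185, edgeR adjusted p = 0.00276) and was lower by genotype under R848, at −1.08 (SE 0.181, edgeR adjusted p = 0.00545), with an interaction of −0.86 that did not pass the test (edgeR adjusted p = 0.256). Of 7 genes for adenine nucleotide, phosphate and proton transport 2 (28.6%) were called in WT given R848. By genotype under R848 there were also 2, beside 13.6% of all genes in each comparison. Ucp2, a carrier of the inner membrane, fell by 0.39 in WT on the log2 scale (edgeR adjusted p = 0.00415), and the genotype difference under R848 was 0.36 (edgeR adjusted p = 0.00594). The channel gene Vdac3 rose by 0.31 in WT (edgeR adjusted p = 0.0193), with a genotype difference of −0.31 under R848 (edgeR adjusted p = 0.0195). The WT response and the genotype difference under R848 share the libraries of WT with R848. Of 12 regulators of mitochondrial gene expression 1 (8.33%) was called in WT given R848, beside 13.6% of all genes. Hif1a, the oxygen-regulated transcription factor, rose by 0.62 in WT (edgeR adjusted p = 0.000566).

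Promoters were searched because nuclear members share regulators: NRF1, the ETS factor GABPA and YY1 are known to act at many genes of the respiratory chain. Windows of 300 bases that span the RefSeq start (GRCm38.p6) were found for 75 of the members. The NRF1 consensus, a run of 10 letters with 1 left free, searched on both strands like the others, was in 28.0% of these 75 genes and in 5.19% of all 27025 genes with a window. CCGGAAG, the ETS letters, were in 28.0% against 9.93%, and AAGATGGC, the YY1 letters, in 13.3% against 3.19%. The 27025 genes were not limited to the 14040 tested in these cells. The shares therefore cannot tell whether members differ from other expressed genes, which was not tested. Windows are shown for 3 of the called members, Cox6a1, Ndufaf4 and Cox7a2l, read 5′ to 3′ on the gene's strand, with matches to these letters on either strand in capitals.
Cox6a1, chr5:115348909-115349208, minus strand: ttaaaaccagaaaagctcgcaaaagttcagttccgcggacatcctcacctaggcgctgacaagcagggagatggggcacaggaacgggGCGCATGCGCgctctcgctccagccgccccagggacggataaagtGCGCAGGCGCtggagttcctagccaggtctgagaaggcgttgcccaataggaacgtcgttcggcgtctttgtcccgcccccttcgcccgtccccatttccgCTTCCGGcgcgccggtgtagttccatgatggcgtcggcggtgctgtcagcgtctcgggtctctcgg
Ndufaf4, chr4:24897833-24898132, plus strand: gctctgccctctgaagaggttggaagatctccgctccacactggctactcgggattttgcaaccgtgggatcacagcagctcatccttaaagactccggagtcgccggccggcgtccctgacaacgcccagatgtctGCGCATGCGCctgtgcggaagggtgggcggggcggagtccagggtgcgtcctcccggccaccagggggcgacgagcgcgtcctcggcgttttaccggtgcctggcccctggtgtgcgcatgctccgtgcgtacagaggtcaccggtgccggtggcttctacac
Cox7a2l, chr17:83514284-83514583, minus strand: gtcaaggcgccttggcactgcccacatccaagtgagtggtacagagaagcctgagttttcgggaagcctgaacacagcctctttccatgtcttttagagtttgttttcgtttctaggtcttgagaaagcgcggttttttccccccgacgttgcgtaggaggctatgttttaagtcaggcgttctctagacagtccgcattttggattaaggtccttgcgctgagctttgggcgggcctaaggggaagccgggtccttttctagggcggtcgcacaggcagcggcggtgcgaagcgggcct
The Cox6a1 window held 2 NRF1 matches and 1 ETS match, the Ndufaf4 window 1 NRF1 match, and the Cox7a2l window none of the 3 motifs. The Cox7a2l window lies inside the gene as GENCODE draws it, which extends to 83517330. A match is a run of letters and not a measured binding site.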

How the data were processed

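RNA of 8 libraries of bone-marrow-derived macrophages was captured as messenger RNA and sequenced, per the labels' protocols. The authors deposited whole-number counts per gene, and the submitters' processing notes name HISAT2, StringTie 1.3.0, edgeR and the mm10 build. Neither says whether counting used strand. Members and lists were chosen with earlier results of these data known. Symbols and exon lengths came from GENCODE M21. Genes passing edgeR's filterByExpr (14040) were normalised by TMM and fitted with edgeR 4.0.16's quasi-likelihood test in 1 joint model of 4 groups (4 residual degrees of freedom), with Benjamini-Hochberg adjustment over all 14040 genes and a threshold of 0.05, two-sided. The 7 contrasts were tested and simulated counts were used to check the script. CPM used TMM-scaled totals, and 3 counts corresponded to 0.14 to 0.163 CPM, a limit that covers counting error only. Named genes were all mitochondrial genes, all called members, the largest rise and fall per complex, the highest subunit per complex, isoform pairs and up to 4 genes per companion list. Ndufb4 and Atp5g2 fell below this rule's minimum of 5 CPM. Pseudogene copies were found with BLAST. DESeq2 1.42.0 and the other alternatives are in the closing section. The table held 13 genes of mitochondrial DNA, all of them protein-coding members, and no rows for mitochondrial rRNA or tRNA.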

Additional observations from a re-analysis of the deposited data

How the results depend on the processing

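The mitochondrial minus nuclear median did not move beyond 1 SD of the replicate spread under any alternative other than leaving out a library. Leaving out each library gave ranges of −0.01 to 0.16 for the WT response, 0.22 to 0.36 for the KAT8-deficient response, −0.16 to 0.01 for genotype untreated, 0.10 to 0.18 for genotype under R848, 0.08 to 0.29 for the interaction, 0.15 to 0.23 for the mean R848 response and −0.02 to 0.10 for the mean genotype difference. The counts of called members then ran from 0 to 4, 0 to 1, 0 to 1, 0 to 3, 0 to 1, 0 to 13 and 1 to 4, in the same order. The mitochondrial share was 1.82 to 2.15% for untreated WT, 2.01 to 2.16% for WT with R848, 1.84 to 1.91% for untreated KAT8-deficient and 2.13 to 2.20% for KAT8-deficient with R848.

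With only the libraries compared, the called members were 0 for the WT response, 0 for genotype untreated and 1 for genotype under R848. The DESeq2 Wald test called 1 for genotype under R848, 1 for the interaction and 2 for the mean genotype difference. No filter on low counts gave 1 for the interaction and 9 for the mean R848 response. For the mean R848 response, library sizes from nuclear genes gave 2, a minimum of 10 counts gave 2, and robust estimation of the spread, added after seeing the data, gave 7. The causes were not tested. Adding the nuclear copies to the mitochondrial genes, also added after seeing the data, changed no count of called members.

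The replicate block gave 2 called members for the mean R848 response and 3 for the mean genotype difference. Replicate numbers are shared between groups, and the labels do not say whether libraries with the same number belong together. The correlations of replicate differences between groups ran from −0.0348 to 0.057. They show no shared replicate effect but cannot tell whether the libraries were paired.

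Direction reversed when 1 library was left out for several members, none of them called with all libraries. The values then ran from −6.11 to 0.23 for mt-Nd4l in the mean R848 response, and in the WT response from −0.29 to 0.02 for Uqcr10 and from −0.01 to 0.32 for Atp5mpl. For genotype under R848 they ran from −0.14 to 0.25 for Ndufs6 (−0.05 without WT with R848 replicate 1), from −0.01 to 0.30 for Uqcr10, from −0.12 to 0.39 for Atp5c1 and from −0.53 to 0.08 for Atp5mpl. mt-Nd4l at −6.11 and Atp5c1 at 0.39 passed the test without WT with R848 replicate 1.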
